A study of Mus musculus with 13 samples.

Results

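Hepatocyte growth factor (HGF, also scatter factor), its receptor MET and the metallothioneins were examined in 13 mouse cutaneous melanomas, 1 Affymetrix array per tumor. The 5 probe sets, of 22690 on the deposited table, were chosen by identifier: 1425379_at and 1451866_a_at for Hgf, 1422990_at for Met, 1422557_s_at for Mt1 and 1428942_at for Mt2. All 5 were found in the table. Their gene names came with the list of identifiers, since the deposited tables hold probe set identifiers only. Every tumor arose in a mouse with an HGF/SF transgene under the promoter and flanking regions of a metallothionein gene, after 1 UV dose at 3.5 days of age. The mice were about 90% FVB/N and 10% C57BL/6. By the genotype labels, 6 melanomas were ARF-deficient (1 ARF Null and 5 ARF Heterozygous) and 7 were INK4a-deficient (4 Ink4a Null and 3 Ink4a Heterozygous). For the ARF-deficient tumors the titles read Ink4a instead, and the genotype labels were followed. All groups carried the transgene and had the UV dose, and tumors without either are not analysed here. Tumors are named by the numbers of their labels.

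HGF is a ligand made mainly by mesenchymal cells, and MET is the receptor tyrosine kinase through which it drives growth, survival and movement of epithelial cells and melanocytes. In HGF/SF transgenic mice the ligand is also made outside its normal sites, including the skin, and melanocytes persist in the dermis. Metallothioneins are small cysteine-rich proteins that bind zinc and copper. Their genes are switched on by metals through MTF-1, a zinc finger factor that binds metal response elements in their promoters, and also by glucocorticoids and oxidative stress. ARF and INK4a, the inactivated tumor suppressors, are both encoded by Cdkn2a: ARF stabilizes p53 and INK4a inhibits the D-type cyclin kinases.

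In the annotation of GRCm38.p6, Hgf lies on chromosome 5 (16553495 to 16619439) and Met on chromosome 6 (17463349 to 17573980). Mt2 (94172618 to 94173567) and Mt1 (94178883 to 94180327) are neighbors on chromosome 8 with 5315 bases between them. The promoter sequences below, from RefSeq (GRCm38.p6), are shown because the transgene put Hgf under metallothionein control while the mouse's own Hgf gene kept its own promoter. Each holds 250 bases before and 50 after an annotated transcript start, and all 3 are on the plus strand. Capitals mark matches, on either strand, to the core of the metal response element, searched as TGCACNC and TGCGCNC. The windows are chr8:94178839-94179138 for Mt1, chr8:94172368-94172667 for Mt2 and chr5:16553245-16553544 for Hgf.
Mt1: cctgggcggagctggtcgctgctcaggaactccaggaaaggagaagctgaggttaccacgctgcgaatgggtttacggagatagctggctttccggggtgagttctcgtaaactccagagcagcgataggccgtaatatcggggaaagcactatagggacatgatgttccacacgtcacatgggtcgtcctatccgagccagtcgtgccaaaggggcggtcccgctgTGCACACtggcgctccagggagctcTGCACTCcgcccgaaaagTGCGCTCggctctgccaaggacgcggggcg
Mt2: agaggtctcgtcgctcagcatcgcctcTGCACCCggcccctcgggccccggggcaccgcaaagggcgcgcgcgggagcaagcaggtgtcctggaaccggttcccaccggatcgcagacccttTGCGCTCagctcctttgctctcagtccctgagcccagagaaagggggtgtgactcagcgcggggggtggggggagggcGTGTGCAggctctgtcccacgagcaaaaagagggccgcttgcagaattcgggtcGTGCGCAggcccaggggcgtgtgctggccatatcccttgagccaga
Hgf: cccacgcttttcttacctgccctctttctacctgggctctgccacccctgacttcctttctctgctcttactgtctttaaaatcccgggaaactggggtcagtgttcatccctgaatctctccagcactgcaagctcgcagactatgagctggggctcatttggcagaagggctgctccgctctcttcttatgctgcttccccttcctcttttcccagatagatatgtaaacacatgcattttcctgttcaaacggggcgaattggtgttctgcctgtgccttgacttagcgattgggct
The Mt1 window held 3 matches and the Mt2 window 4, while the Hgf window shown held 0. The second Hgf window of the RefSeq table and the Met window also held 0. Of the 32851 windows of this length in that table, 25.7% had at least 1 match, 1.97% at least 3 and 0.517% at least 4. Counted from the transcript start of the window, the Mt1 matches began at -23, 3 and 21. Those of Mt2 began at -223, -128, -50 and 5, so some matches in both windows lay after the start. Most of the Mt1 window, from 94178883 on, also lies inside the annotated span of the gene. A match to these letters is a description of the sequence. It is not stated which metallothionein gene supplied the transgene promoter, nor which stretch of Hgf RNA each probe set reads. Thus transcripts of the transgene and of the mouse's own gene cannot be told apart.

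The deposited values were log values centred on the median of the 13 tumors for each probe set, so a value of 0 is the median tumor and levels of different probe sets cannot be compared. The log base was taken as 2. Array medians lay between -0.05 and 0.05. Melanocyte markers, and markers of other cells in the tumors, are not analysed here because no table ties their probe sets to genes. In tumor tissue, fewer cells of a type and less RNA per cell cannot be told apart. The labels do not say whether 2 tumors shared a mouse. The p-values treat the tumors as independent, and could be too small if some shared a mouse.

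Hgf varied most among the 5 probe sets, and mainly at 1451866_a_at, where tumors spanned 3.96 log2 units (15.6-fold). The suffix of this probe set marks a design that reads several transcripts of a gene. Its standard deviation over the 13 tumors was 1.09, larger than that of 96.2% of the 22626 probe sets tested, whose median was 0.27. It stood at -0.70 in ARF null tumor 10, and at -0.69, -1.34, 0.86, 0.06 and -1.87 in ARF heterozygous tumors 12, 13, 14, 8 and 9. In INK4a null tumors 1.2, 2.2, 3 and 7.2 it stood at 2.09, 0.00, -0.12 and -1.04, and in INK4a heterozygous tumors 15, 5.2 and 6.2 at 0.88, 0.76 and 0.72. The highest tumor was thus an INK4a null one and the lowest an ARF heterozygous one. The 3 INK4a heterozygous tumors were close together, and ARF heterozygous tumor 14 lay within their range.

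The other Hgf probe set, 1425379_at, had a narrower range of 1.84 log2 units (3.59-fold) and a standard deviation of 0.49, larger than that of 79.5% of probe sets. Its value was -0.63 in ARF null tumor 10, and 0.24, 0.16, 0.54, -0.31 and -0.94 in ARF heterozygous tumors 12, 13, 14, 8 and 9. It was 0.91, 0.31, 0.24 and -0.40 in INK4a null tumors 1.2, 2.2, 3 and 7.2, and 0.00, -0.12 and -0.08 in INK4a heterozygous tumors 15, 5.2 and 6.2. Tumor 1.2 was again the highest and tumor 9 again the lowest. The groups overlapped throughout.

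Met, the HGF receptor, spanned 2.71 log2 units (6.55-fold), with a standard deviation of 0.76 that exceeded that of 90.8% of probe sets. It stood at 0.38 in ARF null tumor 10, and at -1.80, -0.64, 0.91, 0.76 and -0.21 in ARF heterozygous tumors 12, 13, 14, 8 and 9. In INK4a null tumors 1.2, 2.2, 3 and 7.2 it stood at 0.71, -0.25, 0.10 and -0.54, and in INK4a heterozygous tumors 15, 5.2 and 6.2 at 0.36, 0.00 and -0.85. The extremes of Met, tumor 14 at the top and tumor 12 at the bottom, were both ARF heterozygous and enclosed all INK4a-deficient tumors.

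The metallothioneins varied far less, near the middle of all probe sets. Mt1 spanned 1.11 log2 units (2.16-fold; standard deviation 0.30, above that of 56.6% of probe sets), and Mt2 1.26 log2 units (2.39-fold; 0.36, above that of 65.5%). The suffix of the Mt1 probe set marks a design that can read more than 1 gene's transcripts. Mt1 was -0.16 in ARF null tumor 10, and -0.23, 0.22, 0.07, 0.86 and 0.09 in ARF heterozygous tumors 12, 13, 14, 8 and 9. It was 0.33, 0.00, -0.25 and -0.02 in INK4a null tumors 1.2, 2.2, 3 and 7.2, and -0.23, 0.24 and -0.02 in INK4a heterozygous tumors 15, 5.2 and 6.2. Apart from tumor 8, all Mt1 values thus lay within a narrow band around the median.

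Mt2 was -0.22 in ARF null tumor 10, and 0.49, 0.22, -0.07, 0.88 and 0.35 in ARF heterozygous tumors 12, 13, 14, 8 and 9. It was -0.23, -0.08, -0.38 and 0.00 in INK4a null tumors 1.2, 2.2, 3 and 7.2, and 0.41, -0.09 and 0.37 in INK4a heterozygous tumors 15, 5.2 and 6.2. ARF heterozygous tumor 8 was the highest tumor for both metallothioneins. In that tumor, Hgf was at 0.06 and -0.31 on its 2 probe sets.

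**Figure D1:**
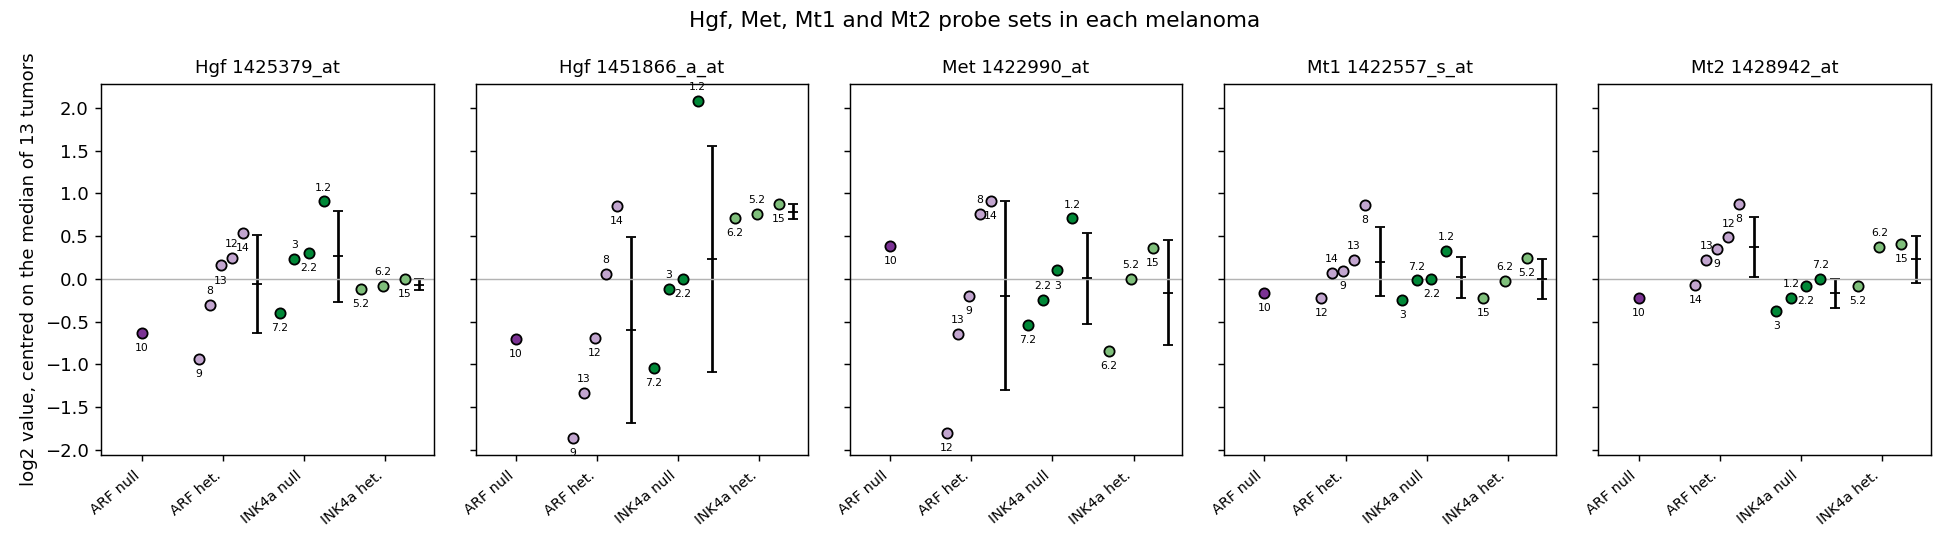
Log2 value of each of the 5 probe sets, centred on the median of the 13 tumors (vertical axis), in each melanoma by genotype group (horizontal axis). Points are tumors with their label numbers, and bars are the group mean and SD where a group has more than 1 tumor. Hgf 1451866_a_at runs from -1.87 in tumor 9 to 2.09 in tumor 1.2, while Mt1 and Mt2 stay between -0.38 and 0.88.

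The comparison of ARF-deficient with INK4a-deficient melanomas asks whether ligand, receptor or metallothioneins differed with the genotype label. Whether heterozygous tumors had lost the remaining allele was not tested. None of the 5 probe sets passed. Hgf 1451866_a_at had the largest difference of the 5, averaging -0.61 ± 0.97 in the ARF-deficient tumors (SD, n = 6) against 0.47 ± 0.98 in the INK4a-deficient ones (SD, n = 7). This log2 difference of -1.08 (standard error 0.50, 95% interval -2.17 to 0.01) had a limma adjusted p of 0.891 and an unadjusted p of 0.0517. An exact permutation test of the tumor labels gave p = 0.0705, and the exact Mann-Whitney test, the one named in the methods, p = 0.138 (both two-sided). The difference was slightly larger than the SD of either group, but none of these tests passed 0.05 with so few tumors. Adjusted for the log2 difference of the array's 3' and 5' beta-actin controls, a common sign of RNA integrity in this array design, it was -0.44 (unadjusted p = 0.20 in limma). It was -1.25 with zygosity as a covariate (unadjusted p = 0.0477, limma adjusted p = 0.657). In heterozygous tumors only it was -1.38 (unadjusted p = 0.0744, limma adjusted p = 0.430). In the tumors whose numbers have no decimal ending it was -0.99 (unadjusted p = 0.174, limma adjusted p = 0.9997). Of the INK4a-deficient tumors, that fit kept only tumors 3 and 15. Only INK4a-deficient tumors bear a decimal ending, which the labels leave unexplained.

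At Hgf 1425379_at the mean was -0.16 ± 0.56 for ARF-deficient tumors (SD, n = 6) and 0.12 ± 0.42 for INK4a-deficient tumors (SD, n = 7), a difference of -0.28 (95% interval -0.83 to 0.27, limma adjusted p = 0.898). Leaving out 1 tumor at a time, it ran from -0.42 (without tumor 14) to -0.12 (without tumor 9), with -0.15 without tumor 1.2 and -0.18 without tumor 10. Among heterozygous tumors alone it was 0.005, with the opposite sign. Met averaged -0.10 ± 1.02 in ARF-deficient and -0.07 ± 0.53 in INK4a-deficient tumors, a difference of -0.03 whose 95% interval ran from -0.92 to 0.85 (limma adjusted p = 0.995). The interval holds both a fall and a rise of Met, so neither was shown with these tumors.

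Mt1 averaged 0.14 ± 0.39 in ARF-deficient and 0.01 ± 0.22 in INK4a-deficient tumors (difference 0.13, 95% interval -0.22 to 0.49, limma adjusted p = 0.927). This small difference rested on tumor 8, without which it was -0.01. Mt2 averaged 0.27 ± 0.39 in ARF-deficient and 0.00 ± 0.29 in INK4a-deficient tumors (difference 0.27, 95% interval -0.12 to 0.67, limma adjusted p = 0.891). The Mt2 difference was 0.08 with zygosity as a covariate (unadjusted p = 0.608 in limma), 0.14 in heterozygous tumors only, 0.16 with array weights and 0.15 without tumor 8. Over all 22626 probe sets tested, 0% passed an adjusted p under 0.05 in limma and 4.93% an unadjusted p under 0.05. Of the 5 probe sets, 0 passed either threshold in limma, 0 did so in the exact Mann-Whitney test (782 of all probe sets unadjusted), and 0 had groups that did not overlap, against 0.11% of all probe sets.

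Zygosity was compared within the INK4a-deficient melanomas, 4 null against 3 heterozygous. Mt2 came nearest to a difference, averaging -0.17 ± 0.17 in the null tumors (SD, n = 4) against 0.23 ± 0.28 in the heterozygous ones (SD, n = 3). The log2 difference was -0.40 (95% interval -0.86 to 0.06, limma adjusted p = 0.444, exact permutation p = 0.114, where 0.0286 is the smallest possible). With array weights it was -0.48 (limma adjusted p = 0.0438), in a fit that called 3239 probe sets against 9 without weights. Mt1, the neighboring gene, differed by 0.02 (95% interval -0.50 to 0.53, limma adjusted p = 0.985).

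Hgf 1451866_a_at averaged 0.23 ± 1.32 in INK4a null and 0.79 ± 0.09 in INK4a heterozygous tumors, a difference of -0.55 (95% interval -2.17 to 1.06, limma adjusted p = 0.819). It was -1.17 without tumor 1.2 and -0.13 without tumor 7.2, -0.25 with quantile normalization and -0.85 with array weights, and it turned to 0.38 when adjusted for the beta-actin controls. The null tumors thus enclosed the heterozygous ones, which lay close together, and the spread itself was not tested. Hgf 1425379_at differed by 0.33 (limma adjusted p = 0.760), with 0.12 without tumor 1.2 and 0.55 without tumor 7.2. Met differed by 0.17 (limma adjusted p = 0.945), with -0.17 without tumor 6.2 and 0.76 adjusted for the beta-actin controls. Over all probe sets, 0.0398% passed the adjusted threshold in limma, 13.1% an unadjusted p under 0.05 and 11.2% had null and heterozygous tumors that did not overlap. Of the 5 probe sets, 0 did so on any of these counts.

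**Figure D2:**
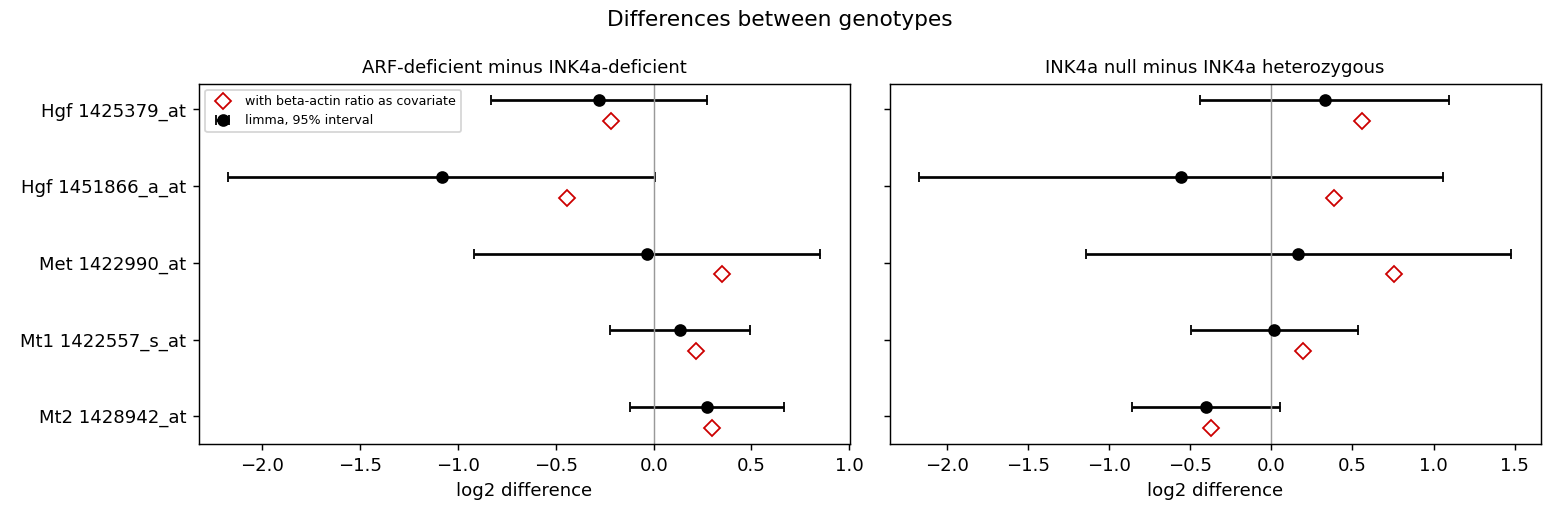
Log2 difference of each probe set (horizontal axis), ARF-deficient minus INK4a-deficient on the left and INK4a null minus INK4a heterozygous on the right. Filled points with bars are the limma difference and its 95% interval, and open diamonds the difference adjusted for the beta-actin ratio. All intervals include 0, and the diamond of Hgf 1451866_a_at stands at -0.44 on the left, beside -1.08 without the covariate.

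The 2 Hgf probe sets were set beside each other across the 13 tumors as 1 of 10 pairs among the 5 probe sets. They ran together in part, with Pearson r = 0.68 (permutation p = 0.0105, Benjamini-Hochberg adjusted 0.105 over the 10 pairs) and Spearman rho = 0.54 (permutation p = 0.0591, adjusted 0.387). Within ARF-deficient tumors r was 0.61 and within INK4a-deficient tumors 0.70, but without tumors 1.2 and 9, the 2 farthest from the median, it was 0.27. Those tumors were the highest and the lowest on both probe sets, so leaving out both also narrowed the range. Leaving out each tumor alone, r ran from 0.53 to 0.77. Without ARF-deficient tumor 13, r was 0.77 and passed the adjusted threshold (permutation p = 0.00394, adjusted 0.0394).

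The difference between the 2 Hgf probe sets, 1451866_a_at minus 1425379_at, ran from -1.50 in tumor 13 to 1.18 in tumor 1.2. It followed the beta-actin ratio, the log2 value of the array's 3' beta-actin control minus that of its 5' control (r = -0.96 across the tumors, a relation looked for after the values were seen). The correlations of single probe sets with the ratio were not among the planned tests either, so their p-values are descriptive. For Hgf 1451866_a_at itself, r with the beta-actin ratio was -0.85 (permutation p = 0.00016, adjusted 0.0008 over 5 relations) and rho was -0.88 (permutation p = 0.00013, adjusted 0.00065). It was -0.77 without the 2 tumors farthest from the median ratio, -0.76 within ARF-deficient and -0.91 within INK4a-deficient tumors. Hgf 1425379_at had an r of -0.26 with the same ratio (permutation p = 0.395, adjusted 0.622). The probe set of Hgf with the widest range was therefore the one that followed the control ratio.

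Among all 22626 probe sets, 1.77% had a correlation with the beta-actin ratio at least as large in size. The 6 tumors with a ratio above 0 had Hgf 1451866_a_at between -1.87 and 0.00, and the 7 with a ratio below 0 between -0.70 and 2.09. ARF null tumor 10 was the exception, with a ratio of -0.14 and an Hgf value of -0.70. The ratio averaged 0.48 ± 0.76 over ARF-deficient tumors (SD, n = 6) and -0.04 ± 0.55 over INK4a-deficient tumors (SD, n = 7). Among the INK4a-deficient tumors it averaged 0.23 ± 0.61 in null (SD, n = 4) and -0.40 ± 0.05 in heterozygous tumors (SD, n = 3). This is the covariate with which the difference of Hgf 1451866_a_at between ARF-deficient and INK4a-deficient tumors was -0.44 in place of -1.08.

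The ratio was not separate from the level of beta-actin, since it correlated at -0.95 with the 3' and at -0.99 with the 5' probe set. The Gapdh 3'/5' difference correlated with it at 0.91, and with Hgf 1451866_a_at at -0.71. Given the ratio, the partial correlation of the 2 Hgf probe sets was 0.91 (permutation p = 3e-05, adjusted 0.0003 over the 10 pairs). The difference between these probe sets followed the ratio at r = -0.96, so taking out the ratio leaves them nearly alike. The partial correlation therefore largely restates that relation, looked for after the values were seen, and is no separate evidence. Met had an r of -0.57 with the beta-actin ratio (permutation p = 0.0424, adjusted 0.106; rho = -0.49), and Mt1 and Mt2 had -0.21 and 0.07. Among all probe sets, 20.1% had a correlation with the ratio at least as large in size as that of Met. How RNA integrity entered each probe set's values was not tested.

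**Figure D3:**
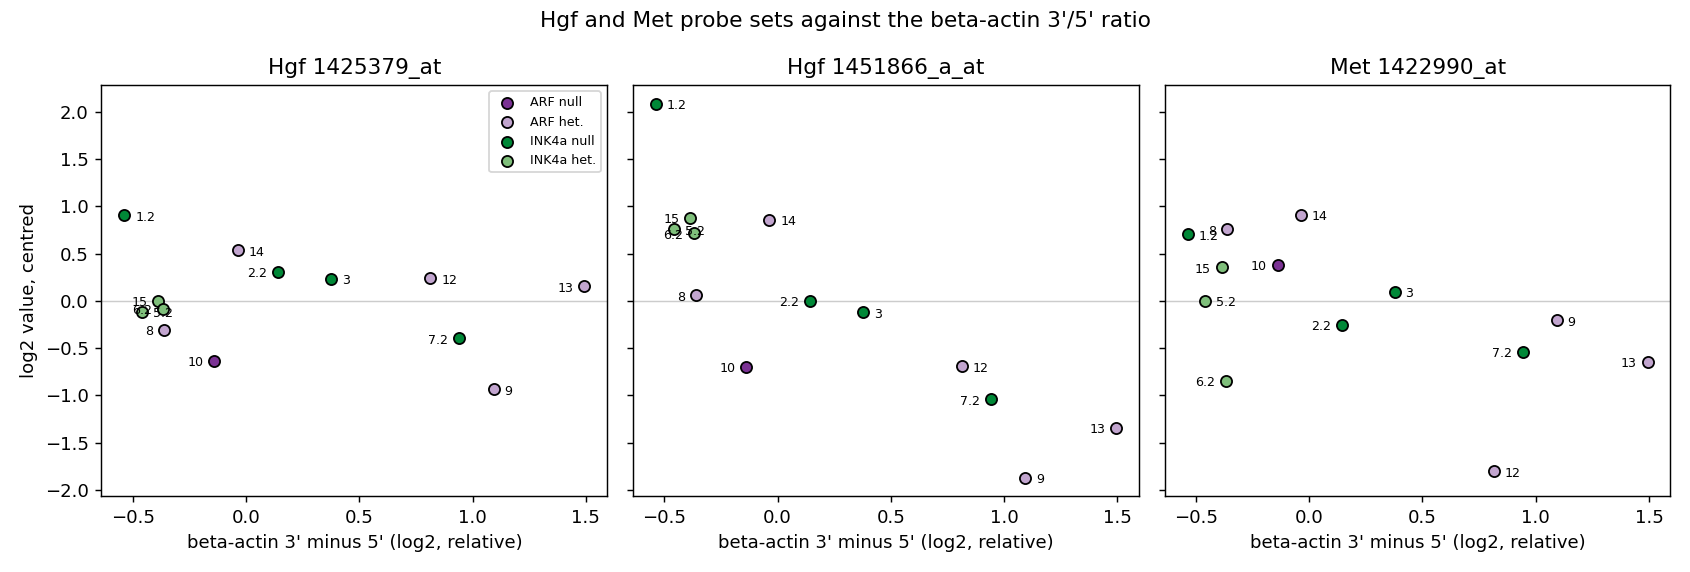
Log2 value of the 2 Hgf probe sets and of Met (vertical axis) against the beta-actin ratio, 3' minus 5' control (horizontal axis), both relative to the other tumors. Points are tumors, colored by genotype group and numbered by label. Hgf 1451866_a_at falls along the ratio (r = -0.85), and Hgf 1425379_at does so less (r = -0.26).

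Hgf was set beside its receptor. Hgf 1451866_a_at and Met had r = 0.48 (permutation p = 0.0973, adjusted 0.403) and rho = 0.51 (permutation p = 0.0774, adjusted 0.387), with r = 0.54 within ARF-deficient and 0.63 within INK4a-deficient tumors, and 0.45 without tumors 1.2 and 9. Given the beta-actin ratio, their partial correlation was -0.01. For Hgf 1425379_at and Met, r was 0.12 (permutation p = 0.696, adjusted 0.773; rho = 0.10), -0.15 within ARF-deficient and 0.70 within INK4a-deficient tumors. No correlation between ligand and receptor passed the adjusted threshold.

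Because the transgene is under a metallothionein promoter, Hgf was also set beside Mt1 and Mt2. Hgf 1451866_a_at had r = 0.16 with Mt1 (permutation p = 0.595, adjusted 0.744; rho = 0.16) and -0.20 with Mt2 (permutation p = 0.508, adjusted 0.726; rho = -0.11). Its r with Mt1 was 0.23 within ARF-deficient and 0.53 within INK4a-deficient tumors, 0.34 with group means removed, and 0.02 (without tumor 1.2) to 0.26 leaving out each tumor. Its r with Mt2 was -0.07 within ARF-deficient and 0.07 within INK4a-deficient tumors, and -0.04 without tumor 1.2. Hgf 1425379_at had r = -0.005 with Mt1 (permutation p = 0.988, adjusted 0.988; rho = -0.03) and -0.32 with Mt2 (permutation p = 0.290, adjusted 0.579; rho = -0.25). Within ARF-deficient and INK4a-deficient tumors its r was -0.09 and 0.39 with Mt1, and -0.07 and -0.47 with Mt2. Leaving out each tumor, its r with Mt2 ran from -0.49 (without tumor 10) to -0.19 (without tumor 1.2). None of these 4 relations passed the adjusted threshold. Among the other 22625 probe sets, 34.9% correlated more highly with Hgf 1451866_a_at than Mt1 did, and 68.5% more highly than Mt2.

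What Mt1 and Mt2 shared in the deposited values rested on tumor 8. Their Pearson r was 0.42 (permutation p = 0.158, adjusted 0.403), but rho was 0.03 (permutation p = 0.921, adjusted 0.921), and without tumor 8 r was -0.17. It was 0.68 within ARF-deficient tumors, which include tumor 8, and -0.27 within INK4a-deficient tumors. Over all tumors, tumor 8 included, it was 0.55 with quantile normalization (permutation p = 0.0511, adjusted 0.256) and 0.44 given the beta-actin ratio. INK4a null tumor 1.2 had the second highest Mt1 and the second lowest Mt2. Met had r = 0.41 with Mt1 (permutation p = 0.161, adjusted 0.403; rho = 0.34) and -0.24 with Mt2 (permutation p = 0.430, adjusted 0.717; rho = -0.29). The relation of Met with Mt2 was -0.62 without tumor 8 (permutation p = 0.0285, adjusted 0.143) and -0.05 without tumor 12. It was -0.20 within ARF-deficient and -0.37 within INK4a-deficient tumors. Met with Mt1 had 0.50 within ARF-deficient and 0.23 within INK4a-deficient tumors, and 0.26 without tumor 8.

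**Figure D4:**
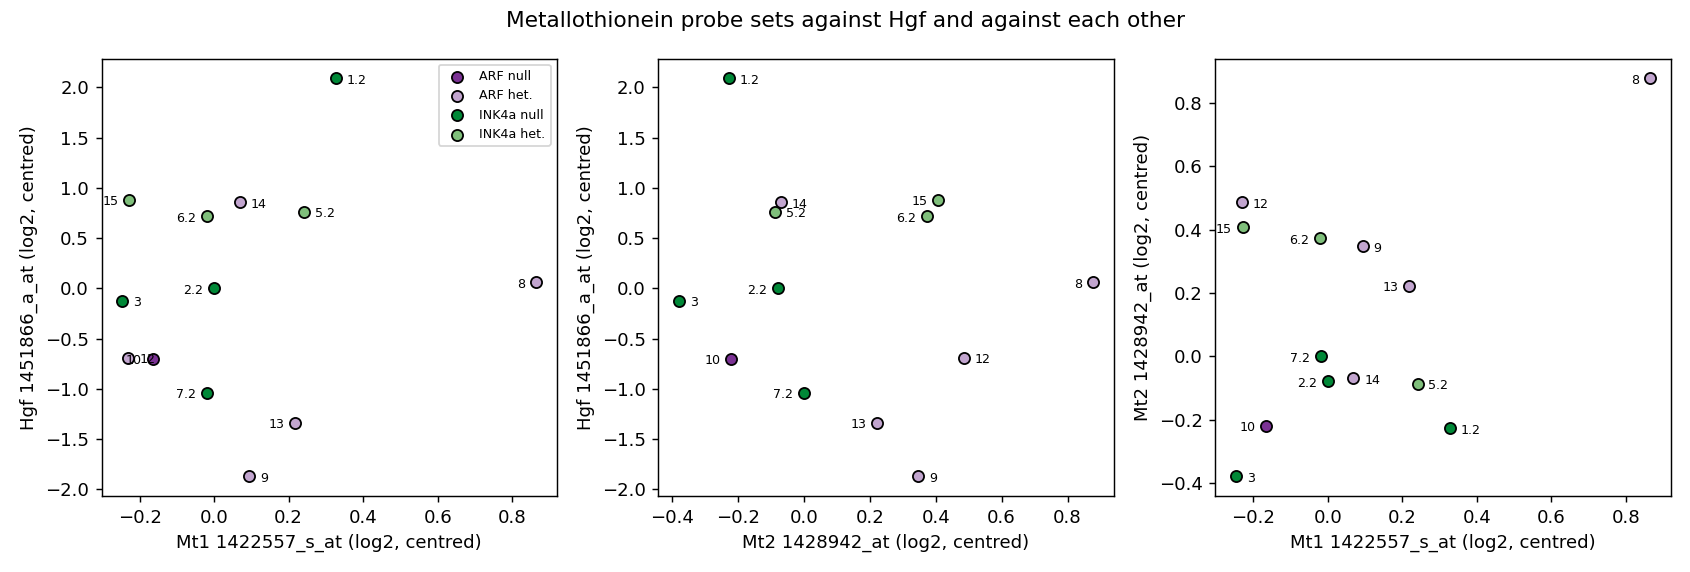
Log2 values, centred on the 13 tumors, of Hgf 1451866_a_at against Mt1 and against Mt2, and of Mt2 against Mt1. Points are tumors, colored by genotype group and numbered by label. Hgf shows r of 0.16 with Mt1 and -0.20 with Mt2, and tumor 8 stands apart at the top of both metallothioneins.

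By pattern across the 13 tumors, the probe sets most like Hgf 1451866_a_at were 1416421_a_at (r = 0.95) and 1460339_at (r = 0.94), and those most opposed were 1423641_s_at (r = -0.90) and 1418172_at (r = -0.89). Their genes are not named here. Of the 5 probe sets nearest to Hgf 1451866_a_at, each had an r with the beta-actin ratio between -0.90 and -0.78. Their selection by likeness to Hgf 1451866_a_at, itself at -0.85, largely fixed these values, which are no separate evidence. The other Hgf probe set took place 896 among its 22625 neighbors, while 1451866_a_at took place 49 among those of 1425379_at. The nearest probe set had an r of 0.83 for Hgf 1425379_at and of 0.93 for Met. It had an r of 0.93 for Mt1 and of 0.91 for Mt2. Mt2 took place 5649 among the neighbors of Mt1, and 25.0% of probe sets were closer to Mt1 than its neighboring gene was. In the other direction, Mt1 took place 2320 among the neighbors of Mt2, with 10.2% of probe sets closer.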

How the data were processed

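RNA of 13 melanomas was hybridized to Affymetrix arrays and processed in GeneSpringGX. The authors deposited log2 values (base not stated, taken as 2) with the median over the 13 tumors subtracted, which is 0 in all 22690 rows. The sources used here give neither summarization, scaling between arrays nor signal over background. The array design named in the methods, Mouse430_2, is larger than the deposited table. A second deposited table, the authors' selection of changed probe sets, was not used. Leaving out 64 Affymetrix control probe sets left 22626.

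ARF-deficient tumors were set against INK4a-deficient tumors by limma 3.58.1 (R 4.3.3; lmFit, then eBayes with no trend of the prior variance, since centred values carry no level). INK4a null and heterozygous tumors were set against each other in a model of all 4 genotype groups. Tests were two-sided, with Benjamini-Hochberg adjustment over all 22626 probe sets and a threshold of 0.05, and were tested on simulated data first. Correlations across tumors have two-sided p-values from 100000 permutations (exact within groups; scipy 1.17.1). Named were the 5 probe sets and, by rule, those with the most similar and most opposed values. Lists of pathway genes and cell type markers are not analysed here, for want of a table of probe sets and genes. The members and lists were chosen with earlier results of these data known. Precision is limited by the number of arrays. The median standard error over all probe sets was 0.15 for ARF-deficient minus INK4a-deficient and 0.19 for INK4a null minus heterozygous tumors. Among the 5 probe sets it ran from 0.16 (Mt1) to 0.50 (Hgf 1451866_a_at) in the former. In the latter it ran from 0.21 (Mt2) to 0.73 (Hgf 1451866_a_at). Alternatives covered normalization, array weights, the variance trend, covariates, subsets and leaving out each tumor.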

Additional observations from a re-analysis of the deposited data

How the results depend on the processing

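Of the differences between ARF-deficient and INK4a-deficient tumors, no member's passed the adjusted threshold under any alternative run; the cause of the shifts below was not tested. With array weights, Met differed by 0.096 there and by -0.26 between INK4a null and heterozygous tumors, where Mt2 differed by -0.48 and passed. Adjusted for the beta-actin ratio, Met differed by 0.35 between ARF-deficient and INK4a-deficient tumors, and Hgf 1451866_a_at by 0.38 between INK4a null and heterozygous tumors. With zygosity as a covariate Met differed by 0.089. Hgf 1425379_at differed by 0.0048 in heterozygous tumors only, and Mt1 by -0.0097 between INK4a null and heterozygous tumors with quantile normalization. Leaving out each tumor, ARF-deficient minus INK4a-deficient ran from -0.23 to 0.31 for Met (0.31 without tumor 12, 0.097 without tumor 1.2) and from -0.011 to 0.21 for Mt1 (-0.011 without tumor 8), from -0.42 to -0.12 for Hgf 1425379_at, from -1.38 to -0.81 for Hgf 1451866_a_at and from 0.15 to 0.37 for Mt2. INK4a null minus heterozygous ran from -0.17 (without tumor 6.2) to 0.43 for Met and was also negative, at -0.068, without tumor 1.2. For Mt1 it ran from -0.095 (without tumor 15) to 0.14 and was -0.086 without tumor 1.2 and 0.11 without tumor 3.

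Over all probe sets, 1115 had an unadjusted p under 0.05 between ARF-deficient and INK4a-deficient tumors. The count was 664 adjusted for the beta-actin ratio, 1708 with zygosity as a covariate, 2954 in heterozygous tumors only (1 past the adjusted threshold), 665 for labels without a decimal ending, and 676 (without tumor 13) to 1807 (without tumor 3; 1772 without tumor 8) leaving out each tumor. Between INK4a null and heterozygous tumors, the 9 past the adjusted threshold became 14 with a trend of the prior variance, 1 with quantile normalization, 3239 with array weights, 0 adjusted for the beta-actin ratio, 0 in the INK4a arrays alone, and 0 to 423 (without tumor 5.2) leaving out each tumor. At an unadjusted p under 0.05, 2974 became 6768 with array weights and 1691 (without tumor 6.2) to 4074 leaving out each tumor.

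For Hgf 1425379_at with 1451866_a_at, r was 0.83 with quantile normalization (adjusted permutation p = 0.0068), past the threshold. Given the beta-actin ratio it was 0.91, also past the threshold. That value is no separate evidence, since the difference of the 2 probe sets itself followed the ratio. With each tumor left out, r ran from 0.53 to 0.77 (0.55 without tumor 9). For Hgf 1425379_at with Met, r was -0.034 given the ratio, -0.11 without the 2 farthest tumors, -0.15 within ARF-deficient tumors and -0.070 (without tumor 1.2) to 0.31 leaving out each, with -0.013 without tumor 14. With Mt1, it was 0.074 with quantile normalization, 0.068 with group means removed, 0.39 within INK4a-deficient tumors and -0.18 to 0.23 leaving out each, above 0 in 6 of those fits (0.0071 to 0.23, with 0.0090 without tumor 2.2) and -0.10 without tumor 10. Given the ratio, Hgf 1451866_a_at had -0.0087 with Met and -0.038 with Mt1. With Mt2 it had 0.00051 with group means removed, 0.070 without the 2 farthest tumors and 0.074 within INK4a-deficient tumors. Met with Mt2 had 0.021 without tumors 12 and 14, the 2 farthest from the median for Met. It had -0.62 (without tumor 8) to -0.05 (without tumor 12) leaving out each. Mt1 with Mt2 had -0.0016 without tumors 1.2 and 8, the 2 farthest from the median for Mt1, and 0.55 with quantile normalization. It had -0.27 within INK4a-deficient tumors and -0.17 (without tumor 8) to 0.56 leaving out each. No paired analysis was possible because ARF-deficient and INK4a-deficient tumors, or null and heterozygous ones, have no tumor number in common. A filter on low values needs levels, which centred values lack.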
